A study of Mus musculus with 23 samples.

Results

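The amino acid transporter families described here are the 61 genes, of 55449 in the deposited table, whose symbols place them in the solute carrier families SLC1 (7 genes), SLC3 (2), SLC6 (19), SLC7 (15), SLC36 (4), SLC38 (11) and SLC43 (3). The rule uses the symbol alone and no measured value. All 61 are protein-coding. Their colon RNA levels were followed in 23 RNA-seq libraries of male C57BL/6 mice of the genotype *Cdx2Apc*f/w, 6 to 8 weeks old at the start and fed a diet with 60% fat. In these mice one floxed *Apc* allele is deleted by a Cre recombinase under the *Cdx2* promoter, so the normal and non-tumor samples carry this deletion too, and there is no group without it. By the methods, all mice also received antibiotics before colonization. BF BSHlow (BF638R bsh-) is a *B. fragilis* strain with an empty vector, and BF BSHhigh (BF638R bsh+) is that strain with a bile salt hydrolase gene of another *B. fragilis* strain. Normal colon after 2 weeks gave 4 libraries of each kind, non-tumor tissue after 12 weeks gave 4 of each, and tumors after 12 weeks gave 4 of BF BSHlow and 3 of BF BSHhigh. These groups ask how the transporter genes differ between tumor and non-tumor tissue, between mice with much and little bacterial bile salt hydrolase, and between the time points.

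Cells take up amino acids through carriers that differ in substrate and in what drives them. Some SLC6 and SLC1 carriers use the sodium gradient to concentrate amino acids from the gut lumen or blood. Several SLC7 light chains reach the membrane only as a pair with an SLC3 heavy chain and exchange one amino acid for another, and SLC36 and SLC38 carriers work at the cell surface or the lysosome. In the colon, apical carriers such as *Slc6a14* are typical of the differentiated surface epithelium. Dividing tumor cells are known for high levels of *Slc7a5*, *Slc3a2*, *Slc1a5* and *Slc7a11*. SLC6 also holds carriers of creatine, taurine, serotonin and GABA.

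The libraries held between 12401388 and 17903008 expected counts. Levels are given as CPM, the count scaled to a common library size after TMM scaling (a factor that corrects library sizes for composition), in the order of the replicates. No column of the deposited table is named for a BF BSHhigh tumor, and 3 columns repeat the names of BF BSHlow tumors. These 3 were taken as the BF BSHhigh tumors because a supplementary table of the study gives the same values under that heading, and are called replicates a, b and c, since it does not tell which is which. Every value for BF BSHhigh tumors rests on this assignment. Marker genes of the epithelium summed to 4542 to 8137 CPM in tumors, 9535 to 12871 CPM in non-tumor tissue and 12815 to 17359 CPM at 2 weeks. Every library thus held epithelial RNA, but the sums of tumors lay below those of both other tissues. Sums of 8 smooth muscle markers were 47.3 to 179 and 7.54 to 213 CPM at 2 weeks (BF BSHlow and BF BSHhigh), 1596 to 8865 and 3447 to 4553 CPM in non-tumor tissue, and 128 to 258 and 183 to 355 CPM in tumors. Replicate 4 of the BF BSHlow non-tumor group stood apart for some transporters named later, and values without it are given there.

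Of the 61 members, *Slc6a18*, *Slc7a12* and *Slc7a13* had 0 counts in all 23 libraries, and 12 members, those 3 included, never reached 10 counts in a library. A member was called in a comparison when its adjusted p was under 0.05 and its log2 fold change was beyond 1 in either direction (edgeR quasi-likelihood test, adjusted over all genes tested). A filter on low counts left 46 members in the comparisons of tumor with non-tumor tissue and between 36 and 43 in the others. Levels of different genes were compared only per kilobase of exon. On that scale *Slc6a14*, a carrier of neutral and basic amino acids, was the highest member in normal colon, at 467 CPM per kb in BF BSHlow and 587 in BF BSHhigh, and in non-tumor tissue, at 243 and 212. In tumors the highest member was *Slc3a2*, the heavy chain CD98, at 40.7 and 33.3 CPM per kb, while *Slc6a14* was at 5.35 and 23.4. The creatine carrier *Slc6a8* came second in non-tumor tissue of both groups, at 135 and 134 CPM per kb.

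In BF BSHlow tumors, 14 of the 46 members tested were higher than in non-tumor tissue and 14 were lower. Among all 16454 genes tested, 16.7% were called higher and 19.5% lower. In BF BSHhigh tumors, 14 members were higher and 12 lower, where 14.6% of all genes were called higher and 14.8% lower. These 2 comparisons share no library, but both come from 1 fit with a common estimate of the spread. Of the members called higher, 13 were called in both, which is 92.9% of each list, and of those called lower, 12 were called in both, 85.7% of the BF BSHlow and 100% of the BF BSHhigh list. Over all genes, those called in both were 76.9% of the BF BSHlow and 88.2% of the BF BSHhigh list of higher genes, and 71.2% and 93.8% of the lists of lower genes. Among the members, the exceptions were *Slc6a9* (higher) and *Slc6a19* and *Slc6a2* (lower), called for BF BSHlow alone, and *Slc36a2* (higher), called for BF BSHhigh alone. *Slc6a9*, *Slc6a2* and, below, *Slc7a2* are outside the rule for named genes and were named after their values were seen. In BF BSHlow, *Slc6a2* had 0, 29, 1 and 1 counts in non-tumor tissue and 1, 0, 1 and 0 in tumors. Its decrease thus rests on non-tumor replicate 2. The call of *Slc6a2* was lost without BF BSHlow tumor replicate 2 or 4 (edgeR adjusted p = 0.0510 and 0.0509). In BF BSHhigh, *Slc6a2* had 4, 8, 10 and 18 counts in non-tumor tissue and 0, 3 and 2 in tumors. This was the same direction without overlap, but it was not called. The median log2 fold change of the members tested was 0.25 in BF BSHlow and 0.10 in BF BSHhigh, against 0.04 and 0.04 over all genes. Tumor and non-tumor libraries did not overlap for 28 of the 46 members in BF BSHlow and 35 in BF BSHhigh. Over all genes tested the shares were 57% and 61.1%, so a lack of overlap, given for single members below, is common here. By family, SLC7 had 5 members higher and 2 lower of 10 tested in each comparison, while SLC6 had 3 higher and 7 lower of 13 tested in BF BSHlow and 2 higher and 5 lower in BF BSHhigh.

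**Figure D1:**
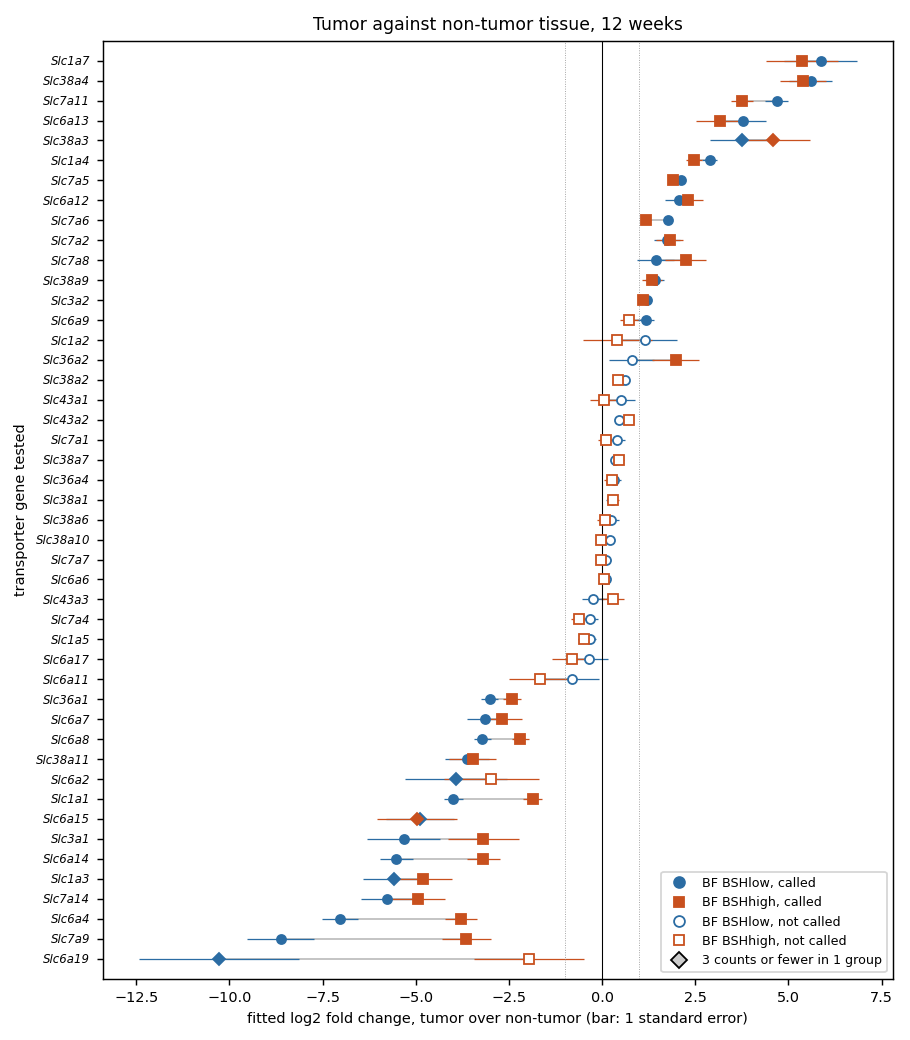
Fitted log2 fold change of tumor over non-tumor tissue (x axis) for the 46 members tested (y axis), in BF BSHlow (blue) and BF BSHhigh (orange). Filled symbols are called, bars are 1 standard error, dotted lines mark a log2 fold change of 1 in either direction, and diamonds are members with 3 counts or fewer in a group, whose fitted value is no bound. *Slc7a11*, *Slc38a4* and *Slc1a7* lie far to the right and *Slc6a14*, *Slc6a4* and *Slc7a9* far to the left in both.

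The exchanger *Slc7a11* (xCT), which brings in cystine for glutamate and pairs with CD98, rose strongly in tumors (chr3:49892526-50443614, minus strand, GRCm38). Its levels were 6.45, 7.68, 4.91 and 11.5 CPM in BF BSHlow non-tumor tissue and 235, 206, 177 and 178 CPM in the tumors (log2 fold change 4.68, standard error 0.30, edgeR adjusted p = 2.94e-08). BF BSHhigh non-tumor tissue had 7.81, 6.16, 14.6 and 7.18 CPM and the tumors had 108, 142 and 117 CPM (log2 fold change 3.76, standard error 0.30, edgeR adjusted p = 4.56e-07). Every tumor lay above every non-tumor library, and every non-tumor library above the 8 of normal colon at 2 weeks, which held 0.91 to 1.84 CPM. In means, the tumors were 26.1-fold and 13.7-fold above non-tumor tissue.

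The heavy chain and other light chains were higher too. *Slc3a2* (CD98; chr19:8706882-8723369, minus strand) had 55.5, 54.1, 63.5 and 75.8 CPM in BF BSHlow non-tumor tissue and 152, 129, 127 and 167 CPM in the tumors (log2 fold change 1.19, standard error 0.12, edgeR adjusted p = 1.23e-06). In BF BSHhigh it had 54.8, 54.4, 51.5 and 57 CPM and 119, 111 and 123 CPM (log2 fold change 1.10, standard error 0.13, edgeR adjusted p = 9.16e-06). The groups did not overlap in either comparison. *Slc7a5* (LAT1), its partner for large neutral amino acids such as leucine (chr8:121881150-121907694, minus strand), went from 11.4 ± 1.61 CPM (SD, n = 4) to 49.7 ± 4.67 CPM (SD, n = 4) in BF BSHlow (log2 fold change 2.11, standard error 0.13, edgeR adjusted p = 2.22e-08). In BF BSHhigh it went from 13.5 ± 1.35 CPM (SD, n = 4) to 51 ± 8.13 CPM (SD, n = 3) (log2 fold change 1.91, standard error 0.13, edgeR adjusted p = 2.03e-07). *Slc7a6* (y+LAT2), which exchanges basic for neutral amino acids, had 9.56, 11.8, 10.8 and 11.3 CPM against 33.1, 38.8, 39.1 and 38.8 CPM in BF BSHlow (log2 fold change 1.77, standard error 0.12, edgeR adjusted p = 4.23e-08) and 15.8, 12.9, 13.8 and 18.1 CPM against 29.3, 37.9 and 35.9 CPM in BF BSHhigh (log2 fold change 1.18, standard error 0.13, edgeR adjusted p = 4.47e-06).

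*Slc7a8* (LAT2), another partner of CD98 for neutral amino acids, was called higher in both but varied widely among the BF BSHlow tumors. These had 96.7, 30.6, 21.6 and 145 CPM, against 19.7, 23, 16.6 and 48.4 CPM in non-tumor tissue (log2 fold change 1.43, standard error 0.50, edgeR adjusted p = 0.0219), and replicate 4 of non-tumor tissue lay above 2 of the 4 tumors. Without that library the log2 fold change was 1.90 (edgeR adjusted p = 0.00604). The call was lost without non-tumor replicate 1, 2 or 3 or tumor replicate 1 or 4 (log2 fold changes of 0.85 to 1.35, edgeR adjusted p of 0.0535 to 0.116). In BF BSHhigh the levels were 42, 57.3 and 43.3 CPM in tumors and 8.81, 11.3, 10.9 and 8.83 CPM in non-tumor tissue, without overlap (log2 fold change 2.25, standard error 0.55, edgeR adjusted p = 0.00325). *Slc7a7* (y+LAT1), the partner for basic amino acid export, had 32.5 to 46.5 CPM in non-tumor tissue and 31.4 to 49.2 CPM in tumors, and its adjusted p was 0.496 in BF BSHlow and 0.922 in BF BSHhigh (edgeR). The basic amino acid carrier *Slc7a1* (CAT1) had 27, 59.6, 54.1 and 45.1 CPM in BF BSHlow tumors and 29.6, 29.4, 38 and 41.1 CPM in non-tumor tissue and was not called (log2 fold change 0.40, standard error 0.20, edgeR adjusted p = 0.0856). Of the CD98 partners named here, *Slc7a5*, *Slc7a6*, *Slc7a8* and *Slc7a11* were higher in both comparisons, while *Slc7a7* was called in neither.

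**Figure D2:**
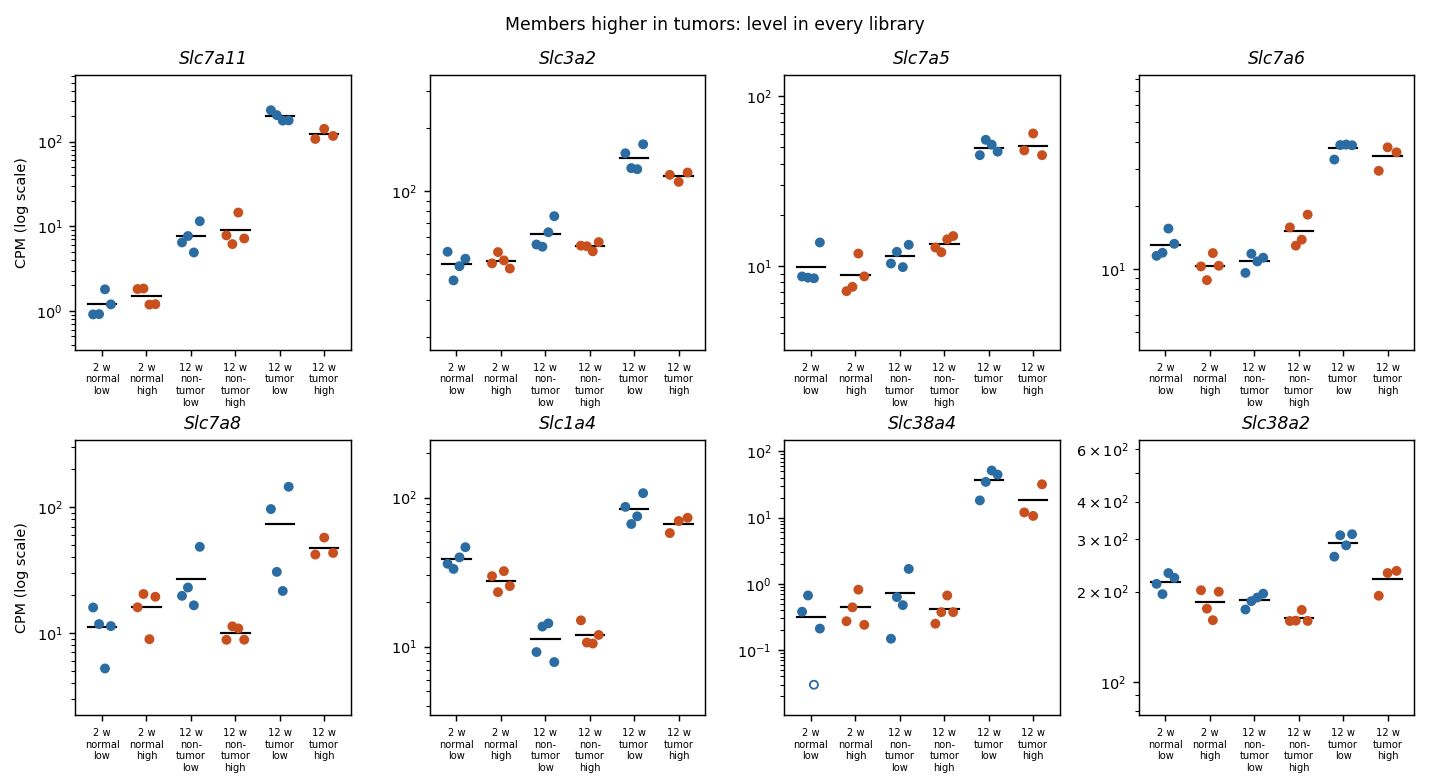
Level of 8 members in each of the 23 libraries (y axis: CPM on a log scale, with its own range per panel) by group (x axis: 2-week normal colon, 12-week non-tumor tissue and 12-week tumors of BF BSHlow, low, and BF BSHhigh, high). Points are libraries, the open point has 0 counts and is drawn at an arbitrary height, and black lines are group means. *Slc7a11*, *Slc3a2*, *Slc7a5*, *Slc7a6* and *Slc1a4* separate tumors from both kinds of non-tumor tissue, while the BF BSHlow tumors span 21.6 to 145 CPM for *Slc7a8*.

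Among the neutral amino acid carriers, *Slc1a4* (ASCT1), an exchanger of alanine, serine and cysteine (chr11:20302180-20332713, minus strand), rose strongly. It had 9.19, 13.6, 14.3 and 7.87 CPM in BF BSHlow non-tumor tissue and 86.6, 66.4, 74.8 and 107 CPM in tumors (log2 fold change 2.88, standard error 0.21, edgeR adjusted p = 5.49e-08). It had 15, 10.6, 10.5 and 12 CPM and 57.8, 69.6 and 73.2 CPM in BF BSHhigh (log2 fold change 2.47, standard error 0.21, edgeR adjusted p = 8.24e-07). Tumors and non-tumor tissue did not overlap, and normal colon at 2 weeks lay between them, at 23.2 to 46.4 CPM. Its relative *Slc1a5* (ASCT2), the main glutamine exchanger of many tumor cells, was not called. *Slc1a5* had 112, 123, 128 and 135 CPM in BF BSHlow non-tumor tissue and 124, 80.5, 75.5 and 121 CPM in tumors (log2 fold change -0.32, standard error 0.16, edgeR adjusted p = 0.0852), and in BF BSHhigh it was at 118, 139, 128 and 111 CPM and 82.1, 88.3 and 98 CPM (log2 fold change -0.48, standard error 0.17, edgeR adjusted p = 0.0277), a difference too small to be called.

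The glutamine and alanine carriers of the SLC38 family moved unequally. *Slc38a4* (SNAT4), known from liver and placenta, had 0.148, 0.63, 0.477 and 1.68 CPM in BF BSHlow non-tumor tissue and 18.2, 34.5, 51.3 and 44.4 CPM in tumors (log2 fold change 5.60, standard error 0.57, edgeR adjusted p = 1.27e-06). In BF BSHhigh its levels were 0.25, 0.374, 0.667 and 0.374 CPM and 11.9, 10.6 and 31.8 CPM (log2 fold change 5.40, standard error 0.62, edgeR adjusted p = 7.58e-06). It stands on chromosome 15 beside *Slc38a1* (SNAT1) and *Slc38a2* (SNAT2), with gaps of 44478 bases between *Slc38a1* and *Slc38a2* and 295089 between *Slc38a2* and *Slc38a4*. *Slc38a2*, a glutamine and alanine carrier, had 174, 186, 191 and 197 CPM in non-tumor tissue and 262, 309, 286 and 311 CPM in tumors of BF BSHlow, an increase without overlap that stayed under the fold limit (log2 fold change 0.62, standard error 0.08, edgeR adjusted p = 1.81e-05). *Slc38a1* was at 115 ± 26.6 CPM (SD, n = 4) in non-tumor tissue and 139 ± 10.6 CPM (SD, n = 4) in tumors (log2 fold change 0.26, standard error 0.15, edgeR adjusted p = 0.152). The glutamine carrier *Slc38a3* (SNAT3) was near its detection limit, with 2 counts over the BF BSHlow non-tumor libraries and 44 over the tumors, a ratio of 16.5 (95% interval 4.31 to 141) by counting error alone (edgeR adjusted p = 0.00166). *Slc38a5* (SNAT5) was at 0 to 0.374 CPM in the 23 libraries and was not tested in these comparisons.

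Of the other members called higher, the glycine carrier *Slc6a9* (GlyT1) had 21.4, 19.8, 17.2 and 19.4 CPM in BF BSHlow non-tumor tissue and 42.2, 27.1, 35.5 and 71.1 CPM in tumors (log2 fold change 1.17, standard error 0.22, edgeR adjusted p = 0.000395). Without tumor replicate 4 its log2 fold change of 0.82 was under the limit. *Slc7a2* (CAT2), a carrier of basic amino acids, had 2.08, 3.78, 1.57 and 2.07 CPM and 9.47, 5.95, 7.11 and 9.82 CPM (log2 fold change 1.75, standard error 0.35, edgeR adjusted p = 0.000511). Its log2 fold change was 1.82 in BF BSHhigh. The arginine sensor of the lysosome, *Slc38a9*, had 4.15, 5.33, 4.5 and 2.84 CPM and 16.3, 7.49, 8.78 and 12.4 CPM (log2 fold change 1.41, standard error 0.26, edgeR adjusted p = 0.000256). Its log2 fold change was 1.35 in BF BSHhigh. For *Slc6a9*, *Slc7a2* and *Slc38a9* every BF BSHlow tumor lay above every BF BSHlow non-tumor library. In BF BSHhigh, *Slc6a9* had 24.9, 24.8, 21.5 and 19.2 CPM in non-tumor tissue and 39.6, 37.4 and 34.9 CPM in tumors. These BF BSHhigh tumors were higher without overlap too, but *Slc6a9* was not called there.

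The GABA carriers *Slc6a13* (GAT2; chr6:121300227-121337733, plus strand) and *Slc6a12* (BGT1, which also carries betaine; chr6:121343076-121365775, plus strand) are neighbours with 5342 bases between them, and both rose. *Slc6a13* had 0.148, 0.286, 0.136 and 0.258 CPM in BF BSHlow non-tumor tissue and 2.85, 1.39, 1.48 and 6.26 CPM in tumors (log2 fold change 3.78, standard error 0.61, edgeR adjusted p = 9.32e-05). *Slc6a12* had 0.964, 1.09, 1.84 and 1.61 CPM and 7.02, 4.77, 4.05 and 7.38 CPM (log2 fold change 2.06, standard error 0.36, edgeR adjusted p = 0.000193). Both were called in BF BSHhigh too, with log2 fold changes of 3.15 and 2.31. *Slc1a7* (EAAT5), a glutamate carrier known from the retina, had 0, 0, 0 and 0.258 CPM in BF BSHlow non-tumor tissue and 5.99, 0.77, 2.19 and 7.97 CPM in tumors (log2 fold change 5.86, standard error 0.98, edgeR adjusted p = 0.000115). Its 4 counts in BF BSHlow non-tumor tissue were all in replicate 4. Without that library the tumors were at least 21.4-fold higher against a floor of 3 counts per library. Replicates 1 and 4 of these tumors, which were also the highest for *Slc7a8*, were the highest for *Slc1a7*. The proton-driven carrier *Slc36a2* (PAT2) had 0.75, 0.187, 1.52 and 0.524 CPM in BF BSHhigh non-tumor tissue and 2.95, 2.41 and 3.58 CPM in tumors (log2 fold change 1.97, standard error 0.63, edgeR adjusted p = 0.0156). Without tumor replicate c the adjusted p of *Slc36a2* was 0.0514.

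*Slc6a14*, *Slc7a9* and *Slc3a1* were lower in tumors of both groups, and *Slc6a19* was called for BF BSHlow alone. *Slc6a14* (ATB0,+; chrX:21714896-21742355, plus strand), which takes up neutral and basic amino acids from the lumen, had 835, 723, 795 and 979.6 CPM in BF BSHlow non-tumor tissue and 19.8, 22.7, 18.8 and 12.1 CPM in tumors (log2 fold change -5.52, standard error 0.44, edgeR adjusted p = 1.43e-07), which is 45.4-fold lower in means. In BF BSHhigh it had 792, 716, 748 and 651 CPM in non-tumor tissue and 154, 61.5 and 25.9 CPM in tumors (log2 fold change -3.18, standard error 0.45, edgeR adjusted p = 4.1e-05), 9.03-fold lower. Normal colon at 2 weeks held 1217 to 2717 CPM, so that tumors lay below both other tissues. *Slc3a1* (rBAT) and *Slc7a9* (b0,+AT) form the carrier that takes up cystine and basic amino acids. *Slc7a9* (chr7:35448796-35466036, plus strand) had 24.7, 19, 8.73 and 53.6 CPM in BF BSHlow non-tumor tissue and 0.147, 0.103, 0 and 0 CPM in tumors (log2 fold change -8.62, standard error 0.90, edgeR adjusted p = 1.44e-06). Without non-tumor replicate 4, its highest library, the log2 fold change was -8.00. BF BSHhigh tumors had 3.47, 3.08 and 0.429 CPM of it, against 37.3, 21.8, 29.7 and 27 CPM in non-tumor tissue (log2 fold change -3.64, standard error 0.67, edgeR adjusted p = 0.000371).

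*Slc3a1* (chr17:85028376-85064236, plus strand) had 8.6, 3.61, 1.84 and 40.5 CPM in BF BSHlow non-tumor tissue and 0.393, 0.257, 0.477 and 0.244 CPM in tumors (log2 fold change -5.32, standard error 0.98, edgeR adjusted p = 0.000265). In BF BSHhigh, non-tumor tissue had 6.81, 7.04, 10.7 and 19.6 CPM and tumors 2.48, 0.759 and 0.429 CPM (log2 fold change -3.19, standard error 0.96, edgeR adjusted p = 0.0111). The groups did not overlap, but the BF BSHlow non-tumor mean rests on replicate 4, without which the log2 fold change was -3.74. *Slc6a19* (B0AT1; chr13:73679745-73704865, minus strand), the main neutral amino acid carrier of the small intestine, depended on this library most, with 1.63, 0.516, 0.477 and 31.3 CPM in non-tumor tissue and 0 counts in all 4 tumors of BF BSHlow. Against a floor of 3 counts per library the tumors were at least 57.5-fold lower with replicate 4 and at least 5.92-fold lower without it (edgeR adjusted p = 0.00135 with it). BF BSHhigh tumors had 0.569, 0.223 and 0.0954 CPM and non-tumor tissue 1.31, 1.31, 0.788 and 1.2 CPM, a difference that was not called (log2 fold change -1.96, standard error 1.47, edgeR adjusted p = 0.279).

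**Figure D3:**
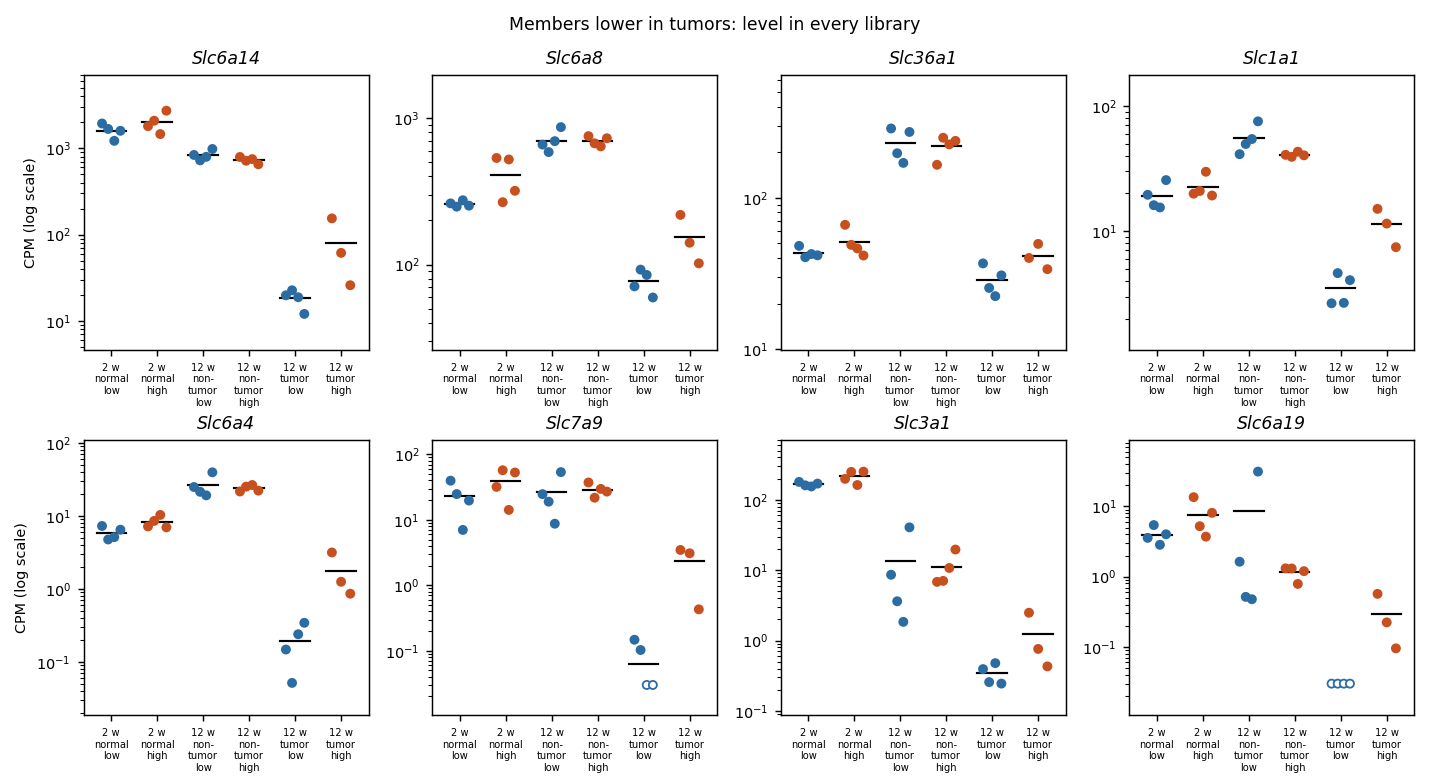
Level of 8 members that were lower in tumors, in each of the 23 libraries (y axis: CPM on a log scale, with its own range per panel) by group (x axis, as for the members higher in tumors). Points are libraries, open points at the bottom have 0 counts and are drawn at an arbitrary height, and black lines are group means. All BF BSHhigh tumors lie above all BF BSHlow tumors for *Slc6a14*, *Slc6a8*, *Slc1a1*, *Slc6a4*, *Slc7a9* and *Slc6a19*.

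*Slc6a8*, *Slc1a1* and *Slc6a4* were lower in tumors of both groups as well. The creatine carrier *Slc6a8* (chrX:73673150-73682502, plus strand) had 659, 586, 696 and 868 CPM in BF BSHlow non-tumor tissue and 71, 92.3, 84.9 and 59.6 CPM in tumors (log2 fold change -3.21, standard error 0.22, edgeR adjusted p = 4.01e-08). It had 753, 673, 641 and 729 CPM and 218, 141 and 102 CPM in BF BSHhigh (log2 fold change -2.19, standard error 0.23, edgeR adjusted p = 4.39e-06). *Slc1a1* (EAAT3; chr19:28835049-28913960, plus strand), which takes up glutamate, aspartate and cysteine, had 41.2, 49.6, 54.3 and 75.3 CPM and 2.65, 4.62, 2.67 and 4.06 CPM in BF BSHlow (log2 fold change -4.00, standard error 0.26, edgeR adjusted p = 2.94e-08). It had 40.6, 39.2, 43 and 40.3 CPM and 15.1, 11.5 and 7.44 CPM in BF BSHhigh (log2 fold change -1.86, standard error 0.26, edgeR adjusted p = 3.78e-05). The serotonin carrier *Slc6a4* (SERT; chr11:76998603-77032340, plus strand), which gut epithelial cells use to clear serotonin, had 24.9, 21.4, 19.2 and 39.6 CPM and 0.147, 0.0513, 0.239 and 0.342 CPM in BF BSHlow (log2 fold change -7.03, standard error 0.48, edgeR adjusted p = 4.12e-08). BF BSHhigh non-tumor tissue had 21.6, 25.2, 26.6 and 22.2 CPM and tumors 3.16, 1.25 and 0.858 CPM of *Slc6a4* (log2 fold change -3.78, standard error 0.42, edgeR adjusted p = 6.36e-06). The groups did not overlap for any of these 3 genes. By contrast the taurine carrier *Slc6a6* (TauT) was at 150.5 ± 23 CPM (SD, n = 4) in non-tumor tissue and 163 ± 10.9 CPM (SD, n = 4) in tumors of BF BSHlow and was not called (log2 fold change 0.10, standard error 0.11, edgeR adjusted p = 0.44).

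The proton-driven carrier *Slc36a1* (PAT1; chr11:55204350-55236330, plus strand), which moves small amino acids out of lysosomes and across the apical membrane, had 287, 197, 169.9 and 272 CPM in BF BSHlow non-tumor tissue and 36.8, 25.3, 22.4 and 30.7 CPM in tumors (log2 fold change -3.02, standard error 0.22, edgeR adjusted p = 6.96e-08). In BF BSHhigh it had 165, 249, 225 and 238 CPM and 40.0, 49.5 and 33.7 CPM (log2 fold change -2.42, standard error 0.24, edgeR adjusted p = 2.66e-06). Normal colon at 2 weeks, whose smooth muscle marker sums were low like those of tumors, held 40.4 to 66.2 CPM. Tumors were low against non-tumor tissue of the same time. Every BF BSHlow tumor also lay below the 2-week range, while the BF BSHhigh tumors overlapped it. The part of smooth muscle in these differences was not tested. *Slc7a14*, an SLC7 member known from nervous tissue and retina, had 1.52 to 4.36 CPM in non-tumor tissue, 0 to 0.191 CPM in tumors and 0 to 0.683 CPM at 2 weeks (log2 fold change -5.76 and -4.93 in tumors against non-tumor tissue). The glial glutamate carrier *Slc1a3* (GLAST) had 0.581 to 2.92 CPM in non-tumor tissue and 0 to 0.155 CPM in tumors, with 1 count over the BF BSHlow tumors. *Slc38a11* and the proline carrier *Slc6a7* were called lower in both comparisons at 1 to 2.84 and 1.05 to 4.82 CPM in non-tumor tissue.

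The leucine carriers *Slc43a1* (LAT3) and *Slc43a2* (LAT4) were not called. *Slc43a2* had 21.6, 26.9, 21.5 and 21.5 CPM in non-tumor tissue and 32.3, 32.4, 27.5 and 34.4 CPM in tumors of BF BSHlow, a small increase under the fold limit (log2 fold change 0.45, standard error 0.11, edgeR adjusted p = 0.00173), and 23.2, 28.1, 22.6 and 23.6 CPM and 40.9, 43.9 and 36.7 CPM in BF BSHhigh (log2 fold change 0.72, standard error 0.11, edgeR adjusted p = 0.000104). *Slc43a1* had 0.75 to 5.01 CPM in non-tumor tissue and 2.39 to 5.14 CPM in tumors, and its groups overlapped.

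Markers of several cell types moved with the same comparisons. In BF BSHlow tumors, differentiated colonocyte markers (8 genes) were called lower in 8 of 8, goblet cell markers in 7 of 8, smooth muscle markers in 8 of 8 and markers of enteric neurons and glia in 7 of 8, while stem cell and WNT target genes were higher in 9 of 9. Markers of B and plasma cells were lower in 6 of 6 and of enteroendocrine cells in 6 of 7, and those of neutrophils were higher in 5 of 6 and lower in 1. In BF BSHhigh tumors the same lists were lower in 7 of 8 (colonocyte), 7 of 8 (goblet cell), 8 of 8 (smooth muscle), 6 of 8 (neurons and glia), 6 of 6 (B and plasma cell) and 6 of 7 (enteroendocrine). They were higher in 8 of 9 (stem cell and WNT) and 3 of 6, with 1 lower (neutrophil). Fibroblast markers were higher in 3 and lower in 1 of 7 in BF BSHlow and in 4 and 1 in BF BSHhigh. Markers of the epithelium as a whole were higher in 1 and lower in 3 of 7 in BF BSHlow and in 1 and 1 in BF BSHhigh. Endothelial markers were higher in 3 of 6 in both. T cell markers were higher in 1 and lower in 1 of 7 in BF BSHlow and higher in 2 in BF BSHhigh. Macrophage markers were higher in 0 and 1 of 7. Mast cell markers were higher in 3 and lower in 2 of 7 and higher in 1 and lower in 1. The summed colonocyte markers were 2016 to 4884 CPM in BF BSHlow non-tumor tissue and 55.1 to 142 CPM in tumors, and 2379 to 3169 and 168 to 841 CPM in BF BSHhigh. Goblet cell markers summed to 12931 to 17708 and 144 to 255 CPM in BF BSHlow and 17465 to 35453 and 804 to 4924 CPM in BF BSHhigh. Squamous epithelial markers summed to 1.48 to 2.65 CPM in BF BSHlow non-tumor tissue and 73 to 174 CPM in tumors. The part of these cell types in the transporter differences was not tested. In bulk RNA, fewer cells of a type and less RNA per cell cannot be told apart.

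Genes of amino acid synthesis, breakdown and sensing were counted beside the carriers. Their counts stand against 16.7% of all genes called higher and 19.5% lower in BF BSHlow tumors, and 14.6% and 14.8% in BF BSHhigh tumors. Of the genes for serine, glycine, proline and one-carbon synthesis, 7 of 11 tested were higher in BF BSHlow tumors, with a median log2 fold change of 1.22, and 5 were higher in BF BSHhigh tumors. They included *Pycr1* of proline synthesis (3.99 in BF BSHlow and 2.75 in BF BSHhigh, log2), *Phgdh* (2.74 and 2.29) and *Psat1* (2.26 and 1.34) of serine synthesis, and *Shmt2* (1.65 and 1.30), which makes glycine from serine. Of the targets and regulators of ATF4, the transcription factor of the response to amino acid lack, 4 of 17 were higher in BF BSHlow tumors, namely *Trib3*, *Chac1*, *Ddit4* and *Cebpb*, with log2 fold changes of 2.08, 1.47, 1.34 and 1.41. In BF BSHhigh tumors 3 of these 17 were higher and 1 lower. Cytosolic aminoacyl-tRNA synthetases were higher in 3 of 20 in BF BSHlow and 2 of 20 in BF BSHhigh, a smaller share than over all genes.

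Of the glutamine and glutamate genes, 1 of 12 was higher in BF BSHlow tumors, the glutaminase *Gls2* (3.56, and 2.96 in BF BSHhigh), and 3 were lower. In BF BSHhigh 1 of these 12 was higher and 2 were lower. The shares called lower were a little above those over all genes in both. Of 12 glutathione and cysteine genes, 1 was higher (*Chac1*, which breaks down glutathione) and 1 lower (*Cth*, -2.79) in BF BSHlow. In BF BSHhigh 0 were higher and 2 lower (*Cth*, -1.97, and *Cbs*, -1.04). Apart from these 2, the shares of glutathione and cysteine genes were smaller than over all genes. *Cth* and *Cbs* make cysteine from homocysteine. Of the genes of amino acid sensing to mTORC1, 3 of 23 were lower in BF BSHlow tumors, below the share over all genes, and 0 were called in BF BSHhigh. The median log2 fold change was -0.16 in BF BSHlow and -0.07 in BF BSHhigh. Of the amino acid and peptide carriers outside these families, 2 of 13 were higher and 4 lower in BF BSHlow tumors. The peptide carrier *Slc15a1* (-8.79 and -3.23) and *Slc6a20a* (-5.47 and -2.66) fell, and *Slc16a10* (TAT1), a carrier of aromatic amino acids, rose (3.28 and 2.70). Of 16 catabolic genes tested, 1 was higher and 2 were lower in BF BSHlow tumors, both below the shares over all genes, with *Arg1*, which splits arginine, higher in both (5.02 and 5.02).

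Promoters were searched because several carriers called higher are known targets of ATF4. RefSeq gene starts of GRCm38.p6 gave a promoter, 250 bases before to 50 after the start, for 43 of the 61 members. Some members have more than 1, and the 43 have 64 promoters. Matches are counted by member below, while the shares over all promoters count promoters, so the 2 are not on the same scale. The ATF4 composite site TGATGCAA was searched on both strands, and 0.895% of all 32851 promoters hold it. It was found in *Slc7a11* and *Slc1a4*, which are 2 of the 10 members with a promoter that were called higher in both comparisons, in 0 of the 9 called lower in both, and in *Slc7a7* of the other 24. These are the promoters of *Slc7a11* and *Slc1a4*, each on the minus strand of GRCm38.p6 and written 5′ to 3′ along the gene, with the match in capitals.
*Slc7a11*, chr3:50443564-50443863: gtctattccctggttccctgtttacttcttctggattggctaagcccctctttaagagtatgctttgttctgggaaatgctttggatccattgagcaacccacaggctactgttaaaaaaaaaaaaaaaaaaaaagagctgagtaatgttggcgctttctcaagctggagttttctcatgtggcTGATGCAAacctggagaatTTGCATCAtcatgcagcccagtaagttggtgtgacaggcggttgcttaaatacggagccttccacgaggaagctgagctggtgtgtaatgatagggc
*Slc1a4*, chr11:20332664-20332963: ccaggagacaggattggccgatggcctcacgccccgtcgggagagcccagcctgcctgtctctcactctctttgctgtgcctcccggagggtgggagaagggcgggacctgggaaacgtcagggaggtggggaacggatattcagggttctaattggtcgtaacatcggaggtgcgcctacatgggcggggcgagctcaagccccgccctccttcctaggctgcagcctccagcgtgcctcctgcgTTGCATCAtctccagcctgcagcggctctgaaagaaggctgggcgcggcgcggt
The *Slc7a11* promoter holds 2 matches in opposite orientation, the first of them starting 66 bases before the gene start, and the *Slc1a4* match lies across the gene start on the other strand. A match is a description of the letters, not evidence of binding. The E-box CACGTG was in 7.15% of all promoters and in 1 of the 10 members called higher in both, 2 of the 9 called lower and 6 of the other 24. The TCF/LEF core CTTTGAT was in 3.73% of all promoters and in 1 of 10, 0 of 9 and 4 of the other 24.

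Between BF BSHhigh and BF BSHlow tumors, 0 of the 37 members tested were called, where 0.476% of 15325 genes were called in either direction (edgeR), and 11 members had an unadjusted p under 0.05, 4 of them with a log2 fold change beyond 1. DESeq2 called 3 members and limma-voom 0. The groups did not overlap for 10 of the 37, against 11.8% of all genes tested, and BF BSHhigh was the higher group for 7 of the 10. The filter on low counts left *Slc7a9* and *Slc6a19* out of the 37. *Slc7a9* had 3, 2, 0 and 0 counts in BF BSHlow and 67, 69 and 9 in BF BSHhigh tumors. *Slc6a19* had 0 counts in each BF BSHlow tumor and 11, 5 and 2 in BF BSHhigh tumors. The smallest adjusted p was 0.0585, for *Slc1a1*, with 2.65, 4.62, 2.67 and 4.06 CPM in BF BSHlow and 15.1, 11.5 and 7.44 CPM in BF BSHhigh tumors (log2 fold change 1.68, standard error 0.31, edgeR adjusted p = 0.0585). *Slc6a4* (log2 fold change 3.11, standard error 0.66, edgeR adjusted p = 0.0839) and *Slc6a14* (log2 fold change 2.12, standard error 0.52, edgeR adjusted p = 0.118), whose values are given above, were higher in all 3 BF BSHhigh tumors than in any BF BSHlow tumor. *Slc6a8* was 2-fold higher in means (log2 fold change 0.99, standard error 0.25, edgeR adjusted p = 0.13). *Slc7a11* went the other way, with 108 to 142 CPM in BF BSHhigh and 177 to 235 CPM in BF BSHlow tumors, again without overlap but not called (log2 fold change -0.72, standard error 0.15, edgeR adjusted p = 0.0716).

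These counts turned on how the test was set up. With low counts kept, with all 12-week libraries in the fit, or without BF BSHhigh tumor replicate c, between 3 and 4 members were called, all higher in BF BSHhigh and drawn from *Slc1a1*, *Slc6a4*, *Slc6a14* and *Slc7a9*. For each of these 4 genes replicate a was the highest and replicate c the lowest of the BF BSHhigh tumors. The summed colonocyte markers of replicates a, b and c were 841, 270.1 and 168 CPM, against 55.1 to 142 CPM in BF BSHlow tumors, and the goblet cell markers summed to 4924, 1566 and 804 CPM, against 144 to 255 CPM. Of these 8 colonocyte markers 3 were called higher in BF BSHhigh tumors, and their part in the carriers' difference was not tested.

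The interaction term asks whether the difference between BF BSHhigh and BF BSHlow is larger in tumors than in non-tumor tissue. It called 2 of 46 members, 4.35%, where 0.972% of all genes were called higher. They were *Slc6a4* (log2 fold change 3.25, standard error 0.63, edgeR adjusted p = 0.0232) and *Slc1a1* (log2 fold change 2.14, standard error 0.34, edgeR adjusted p = 0.0135). In non-tumor tissue both had ranges that overlapped between the groups, *Slc6a4* at 19.2 to 39.6 CPM in BF BSHlow and 21.6 to 26.6 CPM in BF BSHhigh, and *Slc1a1* at 41.2 to 75.3 and 39.2 to 43 CPM. The means were 26.3 and 23.9 CPM for *Slc6a4* and 55.1 and 40.8 CPM for *Slc1a1*. These lower non-tumor means in BF BSHhigh enter the term too. *Slc6a14* (log2 fold change 2.34, standard error 0.54, edgeR adjusted p = 0.0615) and *Slc7a9* (log2 fold change 4.98, standard error 1.18, edgeR adjusted p = 0.0683) fell short of the threshold. In the same term 6 of 8 colonocyte and 4 of 8 goblet cell markers were called higher, with medians of 4.91 and 3.30 (log2). With limma-voom neither gene was called, with an adjusted p of 0.262 for *Slc6a4* and 0.0988 for *Slc1a1*.

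In non-tumor tissue, 0 of 41 members were called between BF BSHhigh and BF BSHlow, where 0% of 14933 genes were called, and 9 had an unadjusted p under 0.05 (edgeR). The groups did not overlap for 4 of the 41, against 5.38% of all genes tested. The smallest p was for *Slc7a8*, with 19.7, 23, 16.6 and 48.4 CPM in BF BSHlow and 8.81, 11.3, 10.9 and 8.83 CPM in BF BSHhigh, without overlap (log2 fold change -1.44, standard error 0.32, edgeR adjusted p = 0.328). Without BF BSHlow replicate 4 the log2 fold change of *Slc7a8* was -0.995 (edgeR adjusted p = 0.248). With all libraries DESeq2 called *Slc7a8* (adjusted p = 0.00352) and no other member, and limma-voom called 0. In normal colon at 2 weeks, 0 of 36 members were called, where 0.00727% of 13752 genes were called, and 8 had an unadjusted p under 0.05 (edgeR), with 0 called by DESeq2 or limma-voom. The smallest p was for *Slc1a4*, at 36, 33.2, 39.7 and 46.4 CPM in BF BSHlow and 29.7, 23.2, 32.1 and 25.5 CPM in BF BSHhigh (log2 fold change -0.50, standard error 0.14, edgeR adjusted p = 0.607), and *Slc6a8* had 262, 249, 275 and 252 CPM and 534, 267, 522 and 319 CPM (log2 fold change 0.66, standard error 0.21, edgeR adjusted p = 0.657).

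Between 12-week non-tumor tissue and 2-week normal colon, 12 of 43 members tested were higher and 4 lower in BF BSHlow, where 17.0% of 15532 genes were called higher and 8.06% lower. In BF BSHhigh 10 were higher and 6 lower, where 16.8% were called higher and 7.56% lower. Time on diet, age, span of colonization and the labelled tissue differ together here and cannot be told apart. Smooth muscle markers were higher in 8 of 8 in both comparisons (median log2 fold change 5.54 and 5.29) and those of enteric neurons and glia in 7 of 8 and 8 of 8, and their part in the members' differences was not tested. The non-tumor libraries of these comparisons are those set against the tumors above.

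*Slc3a1* had the largest fitted decrease of the 43 members in both comparisons, from 179, 160.1, 154 and 169 CPM to 8.6, 3.61, 1.84 and 40.5 CPM in BF BSHlow (log2 fold change -3.60, standard error 0.66, edgeR adjusted p = 0.000398) and from 198, 249, 162 and 251 CPM to 6.81, 7.04, 10.7 and 19.6 CPM in BF BSHhigh (log2 fold change -4.28, standard error 0.68, edgeR adjusted p = 0.000128). Without non-tumor replicate 4, the highest at 12 weeks, the log2 fold change in BF BSHlow was -5.17. Its partner *Slc7a9* had 7.01 to 57.2 CPM at 2 weeks and 8.73 to 53.6 CPM at 12 weeks and was called in neither, so that the 2 subunits differed in course. *Slc6a14* was lower at 12 weeks in both (log2 fold change -1.46, standard error 0.18, edgeR adjusted p = 1.24e-05 in BF BSHhigh, and log2 fold change -0.95, just short of the limit, in BF BSHlow, where it was -1.04 and called without non-tumor replicate 4). *Slc1a4* went from 38.8 ± 5.73 CPM (SD, n = 4) to 11.3 ± 3.2 CPM (SD, n = 4) in BF BSHlow (log2 fold change -1.79, standard error 0.19, edgeR adjusted p = 2.8e-06) and from 27.6 ± 4.02 CPM (SD, n = 4) to 12 ± 2.09 CPM (SD, n = 4) in BF BSHhigh (log2 fold change -1.19, standard error 0.18, edgeR adjusted p = 9.89e-05). The lysosomal arginine sensor *Slc38a9* went from 15, 21.7, 17.2 and 16.4 CPM to 4.15, 5.33, 4.5 and 2.84 CPM in BF BSHlow (log2 fold change -2.07, standard error 0.18, edgeR adjusted p = 6.19e-07) and fell likewise in BF BSHhigh (log2 fold change -1.89, standard error 0.18, edgeR adjusted p = 1.48e-06). In tumors *Slc1a4* and *Slc38a9* were higher than in 12-week non-tumor tissue, *Slc38a9* at 7.49 to 16.3 CPM. *Slc6a19* fell in BF BSHhigh, from 13.5, 5.23, 3.71 and 8.1 CPM to 1.31, 1.31, 0.788 and 1.2 CPM (log2 fold change -2.71, standard error 1.03, edgeR adjusted p = 0.0387), a call lost without any 1 of the 4 non-tumor libraries or 2-week replicate 1 or 4. In BF BSHlow it had 3.56, 5.42, 2.84 and 4.01 CPM at 2 weeks and 1.63, 0.516, 0.477 and 31.3 CPM at 12 weeks and was not called (log2 fold change 1.10, standard error 0.94, edgeR adjusted p = 0.353). Without non-tumor replicate 4, the one library above the 2-week range, it was called lower (log2 fold change -2.20, edgeR adjusted p = 0.00231). *Slc7a8* was called higher at 12 weeks in BF BSHlow (log2 fold change 1.27, standard error 0.35, edgeR adjusted p = 0.00778), but not without the same library (log2 fold change 0.82).

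The proton-driven carrier *Slc36a1* was higher at 12 weeks in both. It went from 48.1, 40.4, 42.5 and 41.6 CPM to 287, 197, 169.9 and 272 CPM in BF BSHlow (log2 fold change 2.42, standard error 0.19, edgeR adjusted p = 2.82e-07) and from 66.2, 48.8, 46.3 and 41.5 CPM to 165, 249, 225 and 238 CPM in BF BSHhigh (log2 fold change 2.12, standard error 0.19, edgeR adjusted p = 8.25e-07). *Slc6a4* went from 5.91 ± 1.18 CPM (SD, n = 4) to 26.3 ± 9.21 CPM (SD, n = 4) in BF BSHlow (log2 fold change 2.14, standard error 0.22, edgeR adjusted p = 2.67e-06) and rose in BF BSHhigh (log2 fold change 1.54, standard error 0.21, edgeR adjusted p = 4e-05). *Slc1a1* and *Slc6a8* were called in BF BSHlow, with log2 fold changes of 1.51 and 1.43, and had 0.87 and 0.77 in BF BSHhigh. *Slc6a17*, a neutral amino acid carrier of synaptic vesicles, went from 0.379, 0.5, 0.0948 and 0.141 CPM to 3.93, 17.4, 6.95 and 5.23 CPM in BF BSHlow (log2 fold change 4.85, standard error 0.62, edgeR adjusted p = 1.85e-05) and from 0, 0.442, 0.594 and 0.321 CPM to 10.9, 7.78, 12.1 and 9.13 CPM in BF BSHhigh (log2 fold change 4.81, standard error 0.60, edgeR adjusted p = 1.56e-05). In tumors *Slc6a17* kept levels of 2.29 to 12.8 CPM and was not called against non-tumor tissue, where *Slc7a14*, also known from nervous tissue, was near 0.

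*Slc7a11*, low at 2 weeks with 0.91, 0.917, 1.8 and 1.2 CPM in BF BSHlow and 1.82, 1.84, 1.19 and 1.2 CPM in BF BSHhigh, was higher in 12-week non-tumor tissue of both (log2 fold change 2.66, standard error 0.36, edgeR adjusted p = 2.78e-05, and log2 fold change 2.57, standard error 0.35, edgeR adjusted p = 3.08e-05). *Slc43a3* had 2.05 to 9.88 CPM at 2 weeks and 8.59 to 23 CPM at 12 weeks (log2 fold change 1.76, standard error 0.46, edgeR adjusted p = 0.00554 in BF BSHlow), and its BF BSHhigh call (log2 fold change 1.38) was lost without non-tumor replicate 1 or 4 or 2-week replicate 2 or 4. The GABA carrier *Slc6a11* (GAT3) had 0.334 to 0.594 CPM and 0.243 to 2.47 CPM and was called in both, but not by limma-voom (adjusted p = 0.0734 and 0.188). *Slc38a11* was called higher in BF BSHhigh alone, with log2 fold changes of 1.97 there and 0.52 in BF BSHlow, a difference that was not tested. For *Slc7a5* and *Slc3a2* the change was small, at 0.20 and 0.46 in BF BSHlow and 0.63 and 0.24 in BF BSHhigh (log2), and neither was called.

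**Figure D4:**
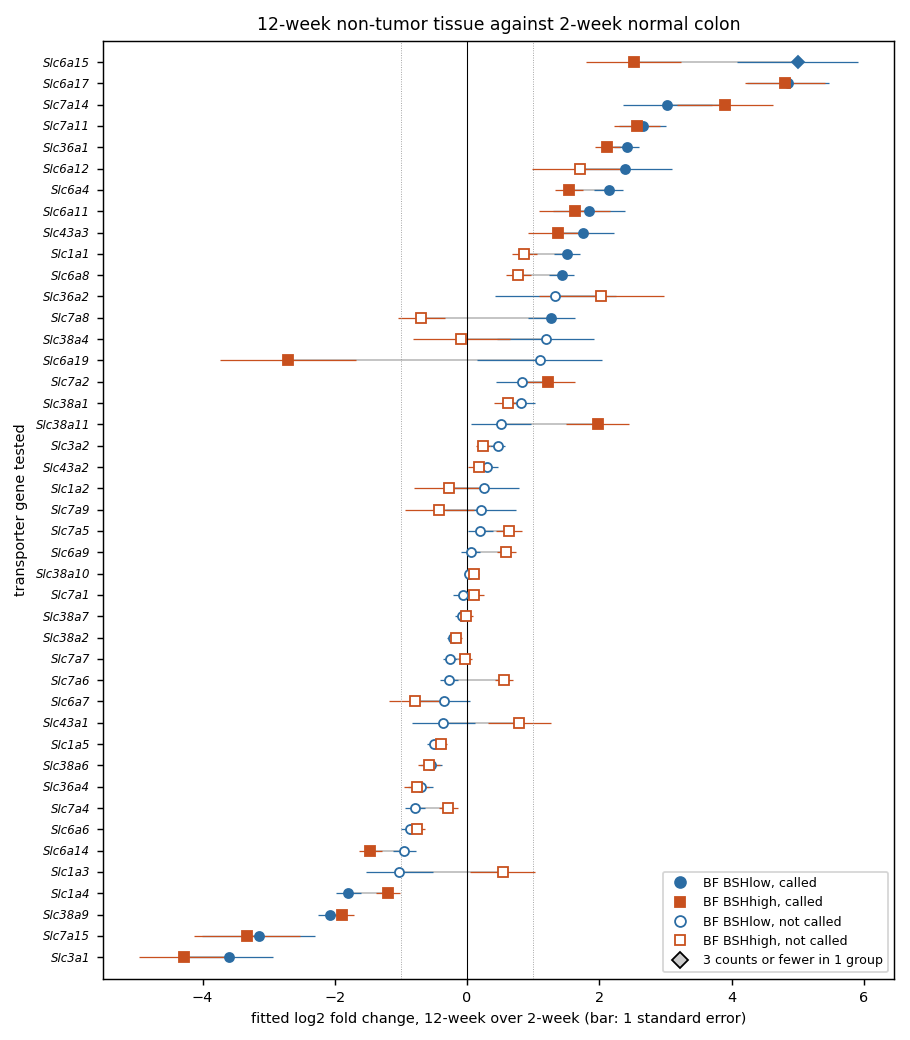
Fitted log2 fold change of 12-week non-tumor tissue over 2-week normal colon (x axis) for the 43 members tested (y axis), in BF BSHlow (blue) and BF BSHhigh (orange). Filled symbols are called, bars are 1 standard error, dotted lines mark a log2 fold change of 1 in either direction, and diamonds are members with 3 counts or fewer in a group. *Slc6a17*, *Slc7a14*, *Slc7a11* and *Slc36a1* lie to the right and *Slc3a1*, *Slc38a9* and *Slc1a4* to the left in both.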

How the data were processed

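Total RNA of mouse colon was sequenced in 23 libraries. Reads were trimmed (Cutadapt) and aligned to mm10 (STAR) by the authors, who deposited a table of RSEM expected counts. Its values are raw, and 4.24% of them are not whole. Tool versions are not given in the sources used here. Library preparation was from total RNA per the labels and from mRNA per the methods, and both also differ in the schedule of colonization. Gene identifiers and symbols match GENCODE M21 (GRCm38) in all 55449 rows used, and 1 row with a text cell was left out. Reads that RSEM shared between genes gave counts that are not whole in 4 of the 61 members (*Slc7a14*, *Slc36a1*, *Slc36a2* and *Slc38a1*). Another gene overlaps on the same strand in 6 members and on the opposite strand in 22.

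After rounding, filterByExpr and TMM scaling, genes were tested by quasi-likelihood in edgeR 4.0.16 (R 4.3.3). P-values were adjusted by Benjamini-Hochberg over all genes tested. The standard error was the log2 fold change divided by the square root of F. Tumor against non-tumor and the interaction used the 15 libraries of 12 weeks, 12 against 2 weeks used the 16 libraries without tumors, and BF BSHhigh against BF BSHlow used the libraries of both groups alone. The labels do not say which libraries came from separate mice, so p-values measure the spread between libraries, which may be technical in part. Intervals of counts and floors of 3 counts cover counting error only.

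Named members were, per comparison, up to 8 higher and 8 lower with the largest fold change among those called with a mean of at least 1 CPM, and 23 members with a known role. The families to describe, the members with a known role and the gene lists were chosen with earlier results of these data known. Alternatives were DESeq2 1.42.0, limma-voom (limma 3.58.1), RLE scaling, no filter, other sets of libraries in the fit, a replicate block and fits without each single library. Tests were checked on simulated counts, and tables were made in Python 3.11.15 with pandas 2.3.3. Promoters came from RefSeq, and protein sequences were not used here.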

Additional observations from a re-analysis of the deposited data

Results flagged for a closer look

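The difference between BF BSHhigh and BF BSHlow was larger in tumors than in non-tumor tissue for *Slc1a1*, by 2.14 on the log2 scale, and for *Slc6a4*, by 3.25, in the interaction test of edgeR. Both were lower in tumors of both groups.

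Single libraries stood far from the 3 others of their group in 14 of 147 groups of 4 libraries of the members named, where chance alone gives about 1 in 20. In BF BSHlow non-tumor tissue these were *Slc6a19* in replicate 4 (31.3 CPM, highest) and *Slc43a2* in replicate 2 (26.9 CPM, highest). In BF BSHhigh non-tumor tissue replicate 3 was the highest for *Slc38a2* (174 CPM) and the lowest for *Slc43a1* (1.94 CPM). A flagged distance can be small in size where the other libraries lie close together, as for *Slc38a2*, with 160, 160 and 160 CPM in the others. Among BF BSHlow tumors replicate 1 was the lowest for *Slc7a6* (33.1 CPM). In normal colon of BF BSHlow at 2 weeks, replicate 3 was the highest for *Slc1a3* (4.26 CPM), *Slc6a13* (1.33 CPM) and *Slc36a2* (1.04 CPM), and replicate 4 for *Slc7a1* (48.1 CPM) and *Slc7a5* (13.7 CPM). For BF BSHhigh at 2 weeks, replicate 3 was the highest for *Slc1a1* (29.8 CPM) and *Slc43a1* (4.75 CPM) and the lowest for *Slc6a7* (1.78 CPM) and *Slc38a1* (54.9 CPM).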

How the results depend on the processing

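Each count of members called was recomputed under the alternatives, and 153 of 167 recomputed counts stayed within 1.5 times of the reported one. Fits without 1 library share all others with the reported fit, and some reported counts were 0 and often stayed 0. This share is therefore no independent measure of how firm the counts are. Between BF BSHhigh and BF BSHlow tumors, the 0 members called became 3 with DESeq2, 3 with no filter on low counts and 4 in the wider fit, and between 0 and 3 when 1 library was left out. *Slc7a9*, not tested in the main fit, was tested with no filter, in the wider fit and without BF BSHhigh tumor replicate c. In non-tumor tissue DESeq2 called 1. The 2 members of the interaction became 4 with DESeq2, 4 with no filter and 0 with limma-voom, and between 1 and 5 when 1 library was left out (5 without BF BSHhigh tumor replicate c, 1 without BF BSHhigh tumor replicate a, BF BSHlow tumor replicate 1 or 2, or BF BSHhigh non-tumor replicate 1 or 4, where *Slc6a4* lost the call). The cause was not tested. Leaving out 1 library gave between 12 and 14 members higher and between 13 and 14 lower in BF BSHlow tumors, and between 13 and 14 higher and 12 and 13 lower in BF BSHhigh tumors. The 12-week against 2-week counts were between 11 and 13 higher and 4 and 6 lower in BF BSHlow, and between 8 and 12 and between 5 and 7 in BF BSHhigh.

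Whether replicate numbers pair the samples is not known. In each pair of groups at least 1 same-numbered correlation was under 0.1, which cannot decide it. BF BSHlow tumor replicates 1 and 4 correlated best with the non-tumor library of their own number (0.19 and 0.089), and replicates 2 and 3 did not. The replicate block (fitted with the 2 groups compared) is therefore given only here. With it, 13 members were higher and 10 lower in BF BSHlow tumors, 11 higher and 3 lower between times in BF BSHlow, and 8 higher and 6 lower in BF BSHhigh, and 0 were called between BF BSHhigh and BF BSHlow in non-tumor tissue or normal colon. For comparisons with BF BSHhigh tumors no block was fitted. No paired analysis was possible because their columns carry no number of their own. Of 1167 recomputed fold changes of the members called, 34 lost the call and 0 changed sign. Fits that gave no value for a member, as where the filter on low counts dropped it, are not among them. In BF BSHlow tumors *Slc6a2* and *Slc6a19* had 11 recomputed values each, against 14 for *Slc1a1*. At these depths, members under 10 counts in every library cannot be compared.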
